A study of Mus musculus with 13 samples.

Results

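The genes *Gm5538*, *4930449A18Rik*, *C130079G13Rik*, *Aadacl2* and *Aadac* form a run of 5 related genes on mouse chromosome 3, among 49315 genes counted. They were selected on their values in the comparison described here, P4 DKO skin with P4 WT skin, so their own values are a description and carry no test. RNA came from whole skin of mice at postnatal day 4 (P4), 3 WT and 3 labelled DKO, with 1 library per label. DKO mice were *K14Cre+Kctd1 fl/flKctd15 fl/fl* animals, in which Cre under the keratin 14 promoter deletes floxed parts of both genes in keratinocytes and their precursors. The dermis, muscle and fat of whole skin lie outside the cells with Cre. The labels give the controls as WT and the series description adds that the DKO mice were littermates; neither says whether the controls carried floxed alleles. The 3 WT libraries held 14836798, 17643043 and 17470709 counts on genes, and the 3 DKO libraries held 11263863, 14950538 and 15050299. A count of 3, taken as a floor, amounts to 0.17 to 0.266 CPM (counts scaled to library size) over the 6 libraries, which covers counting error only. Replicates are numbered in the order of the deposited samples. The first DKO library and the third WT library share 1 label number and the other 4 libraries share another, and the labels do not say what it marks.

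Arylacetamide deacetylase and its relatives are serine esterases of the alpha/beta hydrolase fold, close in sequence to hormone-sensitive lipase. The founding enzyme, encoded by *Aadac*, sits in the membrane of the endoplasmic reticulum, is best known from liver and intestine, and removes acyl groups from drugs and from neutral lipids. The natural substrates of most other members of the family are not well defined, and skin uses many esterases and lipases in making sebum and the lipids of the epidermal barrier.

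The targeted genes were read before any other. *Kctd1* (ENSMUSG00000036225), which encodes a BTB domain protein that binds AP-2 factors, had normalized counts of 443, 410 and 442 in the WT libraries and 506, 985 and 735 in the DKO libraries. Here a normalized count is the count scaled to the library's effective size by the TMM method. *Kctd15* (ENSMUSG00000030499), its paralog, had normalized counts of 736, 737 and 763 in WT and 1131, 1509 and 1325 in DKO. Both genes were at a higher count in each DKO library than in each WT library. The log2 fold changes, DKO over WT, were 0.78 (standard error, SE, 0.218) and 0.83 (SE 0.14). Neither was called, with p-values of 0.342 and 0.107 after Benjamini-Hochberg adjustment of edgeR's quasi-likelihood test, which measures spread between these samples. A count covers the whole gene and does not show whether the floxed part is absent, so the genotype of each library rests on its label. The paper reports from RNA-Seq that an exon of each gene was removed in mice of the DKO genotype. It also reports this for mice with either gene deleted alone, for which it names epidermal sheets, not whole skin, as the material. It does not say there whether these libraries were used.

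The cluster lies on GRCm38 between positions 59729790 and 60040160 of chromosome 3, a span of 310.4 kb, with all 5 genes on the plus strand. *Gm5538* (ENSMUSG00000090527, chr3:59729790-59752333) opens it and is named *Aadacl2fm2* in RefSeq. It is followed by *4930449A18Rik* (ENSMUSG00000074589, chr3:59777809-59846817), which GENCODE annotates as a transcribed unprocessed pseudogene, so that no protein is annotated for it. The next members are *C130079G13Rik* (ENSMUSG00000036951, chr3:59925214-59937949), named *Aadacl2fm1* in RefSeq, and *Aadacl2* (ENSMUSG00000091376, chr3:60006743-60025420). *Aadac* (ENSMUSG00000027761, chr3:60025717-60040160) closes the cluster. Another 7 annotated genes overlap the span, of which *Gm8298* (*Aadacl2fm3* in RefSeq) and the transcribed pseudogene *Gm9696* belong to the same family by structure or sequence, and the other 5 are annotated as processed pseudogenes.

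*Gm5538* was the member with the highest level in WT skin. Its normalized counts were 381, 308 and 361 in the WT libraries and 57.8, 77.2 and 110.5 in the DKO libraries. The groups were far apart, and within DKO the third library was the highest and the first the lowest. The means were 350.1 ± 37.7 (SD, n = 3) and 81.9 ± 26.6 (SD, n = 3), and the log2 fold change was -2.08 (SE 0.235). In a bulk sample, fewer cells of the type that makes a transcript and less of that transcript per cell cannot be told apart, and this holds for every gene below.

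The pseudogene *4930449A18Rik* followed *Gm5538* closely. It had normalized counts of 204, 204 and 216 in WT and 36.8, 44.1 and 69.7 in DKO, with the DKO libraries in the same order as for *Gm5538*. Its means were 208 ± 6.82 and 50.2 ± 17.3 (SD, n = 3), and the log2 fold change was -2.03 (SE 0.248). The ratio of *Gm5538* to *4930449A18Rik* in normalized counts was 1.87, 1.51 and 1.67 in the WT libraries and 1.57, 1.75 and 1.59 in the DKO libraries. The ranges of that ratio overlapped between the groups, although both counts were far lower in DKO.

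*C130079G13Rik*, whose annotated coding sequence is 840 bases long against 1203 in *Gm5538* and *Aadacl2*, had normalized counts of 143, 85.7 and 179.7 in WT and 71, 52.9 and 54.8 in DKO. The WT libraries were widely spread, with the second close to the highest DKO library, and the groups still did not overlap. The means were 136 ± 47.3 and 59.6 ± 9.93 (SD, n = 3), and the log2 fold change was -1.19 (SE 0.295). Without the second WT library the log2 fold change was -1.45, and without the third it was -0.95.

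*Aadac*, the gene of the founding esterase, had normalized counts of 162, 154 and 145 in WT and 113, 106 and 108 in DKO. The libraries of each group lay close together and the groups did not overlap. The means were 154 ± 8.31 and 109 ± 3.75 (SD, n = 3), and the log2 fold change was -0.50 (SE 0.174).

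*Aadacl2*, a little-studied relative whose annotated end lies just ahead of *Aadac* on the same strand, was the exception in the cluster. Its normalized counts were 98.9, 63.7 and 70.2 in WT and 80.2, 57.4 and 80.6 in DKO. The groups overlapped, with means of 77.6 ± 18.7 and 72.7 ± 13.3 (SD, n = 3). The log2 fold change was -0.09 (SE 0.26), and its sign turned when the first WT library (0.11) or the second DKO library (0.06) was left out.

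**Figure D1:**
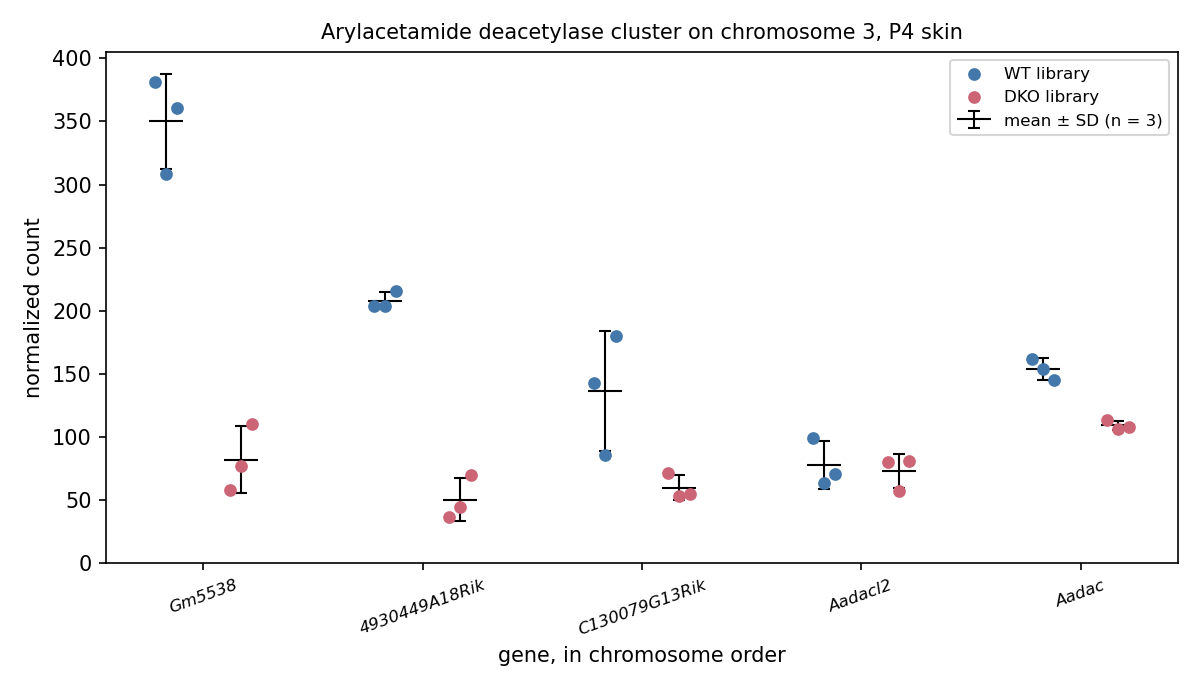
Normalized counts (vertical axis, linear) of the 5 cluster genes in chromosome order, with 1 point per library, WT in blue and DKO in red, and black bars for the mean ± SD of 3 libraries. *Gm5538* and *4930449A18Rik* are far apart between the groups, *C130079G13Rik* and *Aadac* are separated by less, and the *Aadacl2* values overlap.

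All 5 members passed the filter on low counts. The rule for a call was an adjusted p under 0.05 together with a log2 fold change beyond 1 in either direction. The paper applied these limits with DESeq2, whereas the main fit here is edgeR. By edgeR 2 of the 5 members, *Gm5538* and *4930449A18Rik*, were called lower in DKO skin, beside 0.0298% of all 20168 genes tested (6 genes). The groups did not overlap, with DKO below WT, for 4 of the 5, beside 5.96% of all genes tested (1202 genes). Since the members were chosen by this contrast, nothing is read from either count. Both calls were lost, to 0 of 5, when any of the 3 WT libraries was left out, with log2 fold changes of *Gm5538* between -2.18 and -2.03 in those fits. DESeq2 called 3 of 5 members lower, with *C130079G13Rik* added, beside 0.285% of the 19663 genes with an adjusted p there (56 genes). With no filter on low counts edgeR called the same 3, beside 0.229% of 33677 genes (77 genes), and nothing is read from these counts either.

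Levels of different genes were compared as CPM per kilobase of counted exon. On this scale *Gm5538* stood at 18.7 ± 2.01 (SD, n = 3) in WT skin. *Aadac* followed at 6.75 ± 0.365 and *4930449A18Rik* at 4.6 ± 0.151, and the lowest were *C130079G13Rik* at 3.21 ± 1.12 and *Aadacl2* at 3.21 ± 0.776, whose levels did not differ beyond their spread. In DKO skin the order was another one. *Aadac* had a level of 4.78 ± 0.165 and *Gm5538* a level of 4.37 ± 1.42, and these did not differ beyond their spread. *Aadacl2* came next at 3.01 ± 0.551, below *Aadac* but within the spread of *Gm5538*. Last, *C130079G13Rik* at 1.41 ± 0.235 and *4930449A18Rik* at 1.11 ± 0.382 lay within their spread of each other. These levels rest on the annotated lengths, and with the longest annotated transcript in place of the counted length the WT level was 6.61 for *4930449A18Rik* and 7.65 for *Aadac*.

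Summed over the 5 members, normalized counts were 989, 815 and 972 in the WT libraries and 359, 338 and 423 in the DKO libraries. The mean sum was 925 ± 95.9 in WT and 373 ± 44.5 in DKO (SD, n = 3), a log2 ratio of -1.31. The makeup of the sum differed as well. *Gm5538* made up 38.6%, 37.8% and 37.1% of it in the WT libraries and 16.1%, 22.9% and 26.1% in the DKO libraries. *Aadac* made up 16.4%, 18.9% and 15% in WT and 31.5%, 31.4% and 25.4% in DKO, and the *Aadacl2* share was 8.34% ± 1.46 in WT and 19.5% ± 2.7 in DKO (SD, n = 3). The share of *C130079G13Rik*, at 14.5% ± 3.98 and 16.1% ± 3.44, overlapped between the groups. In the same libraries the ratio of *Gm5538* to *Aadac* was 2.35, 2.01 and 2.48 in WT and 0.512, 0.729 and 1.03 in DKO.

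Across the 6 libraries, log2 CPM values of *Gm5538* and *4930449A18Rik* had a Pearson correlation of 0.996. That of *Gm5538* with *Aadac* was 0.93, with *C130079G13Rik* 0.825 and with *Aadacl2* 0.224 (n = 6 libraries each). The points of these correlations share library and genotype, so a pair of genes that both differ between the groups tends to give a high value. Deviations from the group mean on the log2 scale were -0.44, -0.03 and 0.47 in the DKO libraries for *Gm5538* and -0.38, -0.13 and 0.51 for *4930449A18Rik*. In the WT libraries the pair did not run together, with 0.13, -0.18 and 0.05 for *Gm5538* and -0.03, -0.03 and 0.05 for *4930449A18Rik*. For *Aadac* in DKO they were 0.05, -0.04 and -0.02, so that the spread of the first pair among DKO mice was not seen in *Aadac*.

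By the same measure, the 3 tested genes most like *Gm5538* were *4930449A18Rik*, *Gm43205* (r = 0.995) and *Atp8a1* (r = 0.994), the last a flippase that moves phospholipids across membranes. *Atp8a1* had normalized counts of 1631, 1538 and 1772 in WT and 697, 828 and 908 in DKO, and *Gm43205* had means of 106 ± 5.03 and 70.2 ± 6.48 (SD, n = 3). The 3 most like *Aadac* were *Ube2v1* (r = 0.998), a ubiquitin-conjugating enzyme variant, *Coch* (r = 0.984), which encodes the extracellular protein cochlin, and *Gm45453* (r = 0.98). *Coch* had normalized counts of 312, 292 and 264 in WT and 188, 157 and 187 in DKO.

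The other genes inside the span were read from the same fit. *Gm8298*, a predicted family member, had normalized counts of 19.4, 6.79 and 16.3 in WT and 1.31, 4.41 and 17.9 in DKO. The groups overlapped because the third DKO library lay within the range of WT, and its log2 fold change of -0.75 (SE 0.721) did not pass the test (adjusted p = 0.928, edgeR). That value rests on single libraries, and was -2.19 without the third DKO library and -0.31 without the first. *Gm9696*, which lies between *C130079G13Rik* and *Aadacl2*, had 43.8, 33.1 and 26.5 in WT and 67, 26.5 and 52.8 in DKO, again with overlap, and its log2 fold change was 0.50 (SE 0.374, adjusted p = 0.896, edgeR), with 0.20 without the first DKO library and 0.80 without the second. *Gm37579*, a processed pseudogene on the minus strand within the first intron of *Gm5538*, had 16.3, 17 and 26.5 in WT and 1.31, 4.41 and 3.98 in DKO. Its groups did not overlap and its log2 fold change was -2.54 (SE 0.517, adjusted p = 0.202, edgeR), and it was called when no filter on low counts was used. The sources used here do not say whether counting used the strand, and without strand, reads from *Gm5538* introns and from *Gm37579* cannot be told apart. *Gm38208*, in the same intron, was at 12.2, 11.9 and 2.57 in WT and 1.31, 6.62 and 1.99 in DKO, and with *Gm5539*, *Gm2756* and *Gm18427* it had too few counts for a test.

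Beyond the span, 37 annotated genes start or end within 1 Mb of it, of which 14 were tested and 11 had no count in any library. None of the 14 was called by edgeR, 0 of them had an unadjusted p under 0.05, and DESeq2 called 0. Among all genes tested 4.96% were higher and 2.54% lower at that level, and DESeq2 called 0.498% higher and 0.285% lower. Together with the 3 tested inside the span, 17 genes were tested and 0 called, against 14 genes or 0.0694% called in either direction among all genes tested. At an unadjusted p under 0.05, *Gm37579* was the only 1 of the 17. The median log2 fold change of the 14 was -0.01, with 6 higher and 8 lower, beside a median of 0.02 over all genes tested.

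The nearest gene with a mean normalized count of at least 10 was *Sucnr1*, the receptor for succinate, which starts 41.7 kb after *Aadac*. It had normalized counts of 38.7, 50.1 and 53 in WT and 36.8, 32 and 17.9 in DKO. The groups were adjacent and did not overlap, and the log2 fold change of -0.73 (SE 0.331) did not pass the test (adjusted p = 0.673, edgeR). *Mbnl1*, a regulator of alternative splicing 433 kb after the span, had means of 8348 ± 149.8 and 8066 ± 1078 (SD, n = 3) and a log2 fold change of -0.05. The unnamed transcripts *Gm37589* and *Gm37488*, within *Mbnl1*, had log2 fold changes of -0.31 and 0.09. On the other side the nearest was *Igsf10*, an immunoglobulin superfamily gene that ends 385 kb before the cluster, with means of 2549 ± 372 and 3058 ± 530 and a log2 fold change of 0.26 (adjusted p = 0.822, edgeR). *Med12l*, a paralog of a Mediator subunit, had a log2 fold change of -0.01, *Gm43589* one of -0.47, and *P2ry12*, a receptor for ADP, one of 0.26. The sign turned for *P2ry12* (-0.10) and *Gm37488* (-0.15) without the first DKO library, for *Mbnl1* (0.06) and *Med12l* (0.07) without the second, and also for *Gm37488* without the second WT library (-0.05) and *Med12l* without the third (0.04). Other values depended on single libraries without turning, with left-out ranges of -1.02 to -0.22 for *Gm43589*, -0.60 to -0.03 for *Gm37589*, 0.10 to 0.38 for *Igsf10* and -0.95 to -0.46 for *Sucnr1*. The lowest and highest of these came without the third and the second DKO library for *Gm43589*, the first and the second for *Gm37589*, the first DKO and the third WT library for *Igsf10*, and the first and the third DKO library for *Sucnr1*.

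**Figure D2:**
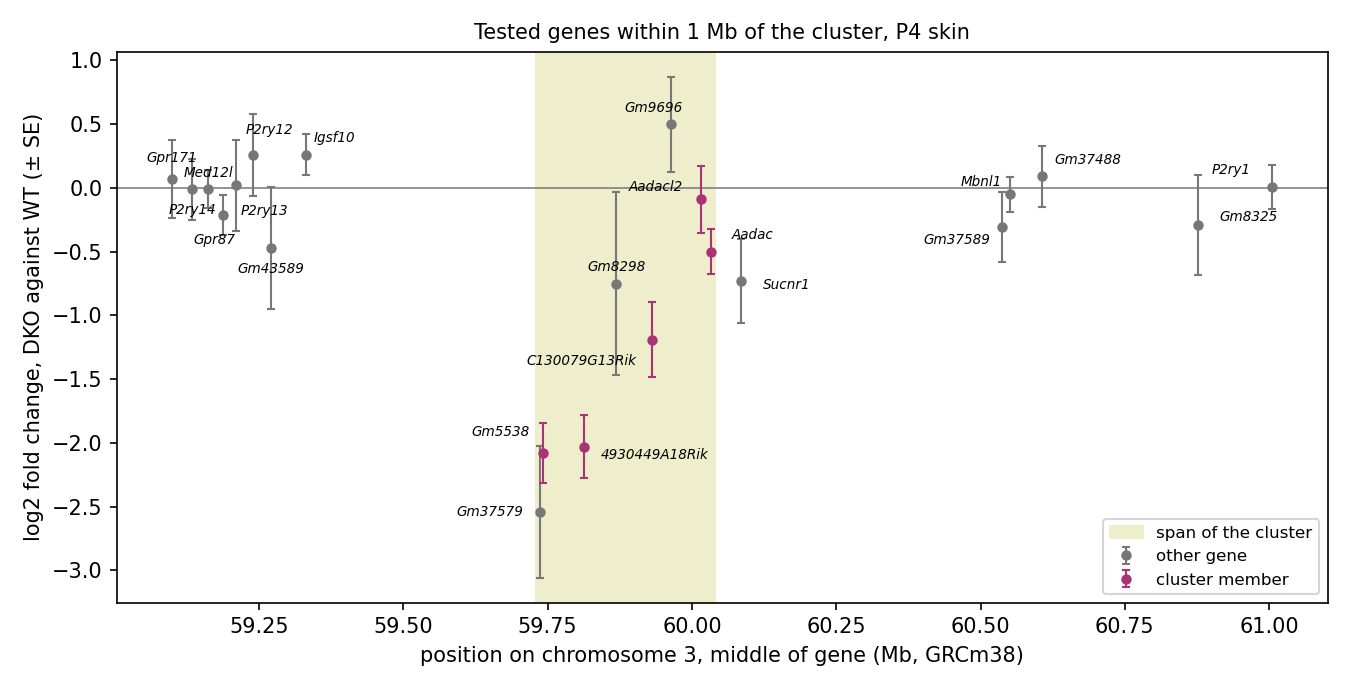
Log2 fold change of DKO against WT (vertical axis, bars ± SE) against the middle of each tested gene within 1 Mb of the cluster on chromosome 3 (horizontal axis, Mb on GRCm38). Cluster members are in purple, other genes in grey, and the shaded band is the span of the cluster; the estimates of the 14 tested genes outside the band lie between -0.73 (*Sucnr1*) and 0.26.

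The members share an exon structure. Each has an annotated transcript with 3 consecutive internal exons of 223, 70 and 172 bases, 465 bases together, and *Gm8298* has the same run. Compared base by base in GENCODE transcripts, without gaps, this block was 93.1% identical between *Gm5538* and *4930449A18Rik* (433 of 465 bases). *Gm5538* was 84.7% identical to *Gm8298*, 80.9% to *C130079G13Rik*, 69% to *Aadacl2* and 54.2% to *Aadac*, the lowest value among the 10 pairs of members. Beside the -2.08 of *Gm5538*, the log2 fold changes of the other members in the order of that identity were -2.03, -1.19, -0.09 and -0.50. *Gm8298*, not a member, lies between *4930449A18Rik* and *C130079G13Rik* in that order. Its log2 fold change was -0.75, a value that rests on single libraries. Since the members were chosen by this contrast, nothing is read from the order, and its relation to identity was not tested.

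The middle exon of the block is printed to show how the copies differ, from the plus strand of GRCm38, with capitals where a base differs from *Gm5538*. It is exon 3 of *Gm5538* (chr3:59745503-59745572), *Gm8298* (chr3:59866612-59866681), *Aadacl2* (chr3:60017375-60017444) and *Aadac* (chr3:60037267-60037336) and exon 4 of *C130079G13Rik* (chr3:59931657-59931726). In the pseudogene *4930449A18Rik* it is exon 3 (chr3:59839769-59839838).
*Gm5538*: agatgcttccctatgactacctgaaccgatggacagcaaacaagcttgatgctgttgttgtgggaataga
*4930449A18Rik*: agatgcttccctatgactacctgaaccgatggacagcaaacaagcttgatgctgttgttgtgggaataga
*Gm8298*: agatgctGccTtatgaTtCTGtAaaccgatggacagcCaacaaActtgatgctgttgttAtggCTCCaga
*C130079G13Rik*: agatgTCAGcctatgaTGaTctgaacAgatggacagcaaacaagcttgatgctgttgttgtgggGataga
*Aadacl2*: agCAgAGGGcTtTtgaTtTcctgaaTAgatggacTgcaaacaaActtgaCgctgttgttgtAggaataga
*Aadac*: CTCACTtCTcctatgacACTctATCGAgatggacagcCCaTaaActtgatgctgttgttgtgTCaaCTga
The pseudogene had 0 differences from *Gm5538* in these 70 bases, *C130079G13Rik* had 9, *Gm8298* 14, *Aadacl2* 16 and *Aadac* 24. Counts of near-identical copies can be divided between genes, and how reads mapping to several places were handled is not given in the sources used here. Of all windows of 50 bases in *Gm5538* transcripts, 12.1% occurred in a transcript of another gene, mostly *4930449A18Rik*, and of those in *4930449A18Rik*, 4.37% did. For *C130079G13Rik* the share was 8.83%, all of them found in *Gm9696*. *Aadacl2* and *Aadac* shared 0% with any annotated transcript. At 150 bases, the length of a read, 1.82% of the windows of *C130079G13Rik* were shared and 0% of those of the other 4 members. Values of *Gm5538*, *4930449A18Rik*, *C130079G13Rik* and *Gm9696* are uncertain for this reason. Only exact windows in annotated transcripts were counted, so the shares do not bound that uncertainty.

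No RefSeq promoter (GRCm38.p6) was matched for *4930449A18Rik*, so the pairs compared below leave that gene out. Promoters were matched for the other 4 of the 5 members and for *Gm8298*. They were searched on both strands for GCCNNNGGC (the AP-2 core), for AGGTCA directly repeated with 1 base between (bound by RXR heterodimers), for TATAAA and for CCACACCC (bound by KLF factors). TATAAA was found at position -69 from the start in *Gm5538* and -57 in *Gm8298*, both on the minus strand, at -214 in *C130079G13Rik* and at -159 in *Aadacl2*, and 13.6% of the 32851 promoters in the table hold it. The other 3 motifs were in 0 of these 5 windows, and they occur in 16.6%, 0.0396% and 3.56% of all promoters. A match is a description of the letters and says nothing of binding. Of the 6 promoters found for chromosome 4 paralogs, *Aadacl3* held GCCNNNGGC at -23 and *Gm436* held TATAAA at -80, with no other match in these or in *Nceh1*. Upstream of the start, *C130079G13Rik* and *Aadacl2* aligned over 190 columns with 156 like bases, or 82.1%, whereas the longest local alignment among the other 9 pairs had 29 columns. These 2 sequences are printed because their genes had different values in DKO skin, with log2 fold changes of -1.19 and -0.09. They are the plus strand at chr3:59924964-59925213 and chr3:60006493-60006742, with capitals for runs of at least 8 like bases in that alignment, 7 runs in all.
*C130079G13Rik*: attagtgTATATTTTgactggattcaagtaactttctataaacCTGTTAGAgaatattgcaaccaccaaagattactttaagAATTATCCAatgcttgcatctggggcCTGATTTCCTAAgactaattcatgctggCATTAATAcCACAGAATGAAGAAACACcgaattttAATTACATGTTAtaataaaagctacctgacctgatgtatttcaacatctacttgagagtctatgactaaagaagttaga
*Aadacl2*: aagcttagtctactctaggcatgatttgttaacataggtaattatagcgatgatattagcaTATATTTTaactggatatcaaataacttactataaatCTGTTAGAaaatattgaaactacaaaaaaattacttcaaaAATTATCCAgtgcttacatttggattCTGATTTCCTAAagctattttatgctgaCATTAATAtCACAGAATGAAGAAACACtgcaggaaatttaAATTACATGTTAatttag

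The family has 8 further members outside the cluster by name. The cluster on chromosome 4 holds 7 of them within 333 kb (chr4:144453771-144786583). *Aadacl4* had normalized counts of 273, 249.6 and 209.6 in WT and 57.8, 106 and 66.7 in DKO. The groups were far apart, and its log2 fold change was -1.66 (SE 0.246, adjusted p = 0.0665, edgeR). *Gm13178* had 144, 124 and 125 in WT and 30.2, 69.5 and 54.8 in DKO, a log2 fold change of -1.33 (SE 0.286, adjusted p = 0.205, edgeR). *9430007A20Rik* had 19.4, 27.2 and 33.4 in WT and 5.26, 7.72 and 4.98 in DKO, a log2 fold change of -2.14 (SE 0.426, adjusted p = 0.194, edgeR). For *Gm438* the log2 fold change was -1.21, for *Gm13124* -0.85 and for *Aadacl3*, the most abundant of them by count, -0.83. Without the first DKO library they were -0.57 for *Gm13124* and -0.54 for *Aadacl3*, and without the second -1.36 and -1.12, so both depend on single libraries, and *Gm13124* was the only 1 of the 7 whose groups overlapped. *Gm436* had means of 42.4 ± 10.8 and 20.9 ± 6.06 (SD, n = 3). Of the 7, 6 were lower with no overlap, beside the 5.96% of all genes tested given above.

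Of the 7 genes on chromosome 4, all 7 had lower means in DKO skin and 0 were called by edgeR. All 7 had an unadjusted p under 0.05, beside 2.54% of all genes tested that were lower at that level (512 genes), a share that is from edgeR. DESeq2 called 4, namely *9430007A20Rik*, *Aadacl4*, *Gm13178* and *Gm438*, beside 0.285% of genes called lower by DESeq2, and edgeR with no filter on low counts called the same 4, beside 0.229%. Their median log2 fold change was -1.21 beside 0.02 over all genes tested. Neighbouring copies of a gene are not independent of each other. Their summed normalized counts were 995, 937 and 819 in WT and 251, 555 and 416 in DKO, a log2 ratio of -1.17, and the first DKO library was the lowest. In the chromosome 3 sum the first and second DKO libraries lay close together, at 359 and 338, and the third was at 423. Among the members, *Gm5538* and *4930449A18Rik* were also lowest in the first DKO library. *C130079G13Rik*, *Aadacl2* and *Aadac* were lowest in the second. *Aadacl4* was also called by edgeR without the first DKO library (log2 fold change -1.52, adjusted p = 0.0231) or without the second (-1.96, adjusted p = 0.0143), and with the shared label number as a block (-1.68, adjusted p = 0.023), with total counts (-1.71, adjusted p = 0.0278) or with skeletal muscle genes left out of library sizes (-1.68, adjusted p = 0.0456). Over all alternatives its adjusted p ran from 6.7e-07 in DESeq2 to 0.31 without the first WT library.

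**Figure D3:**
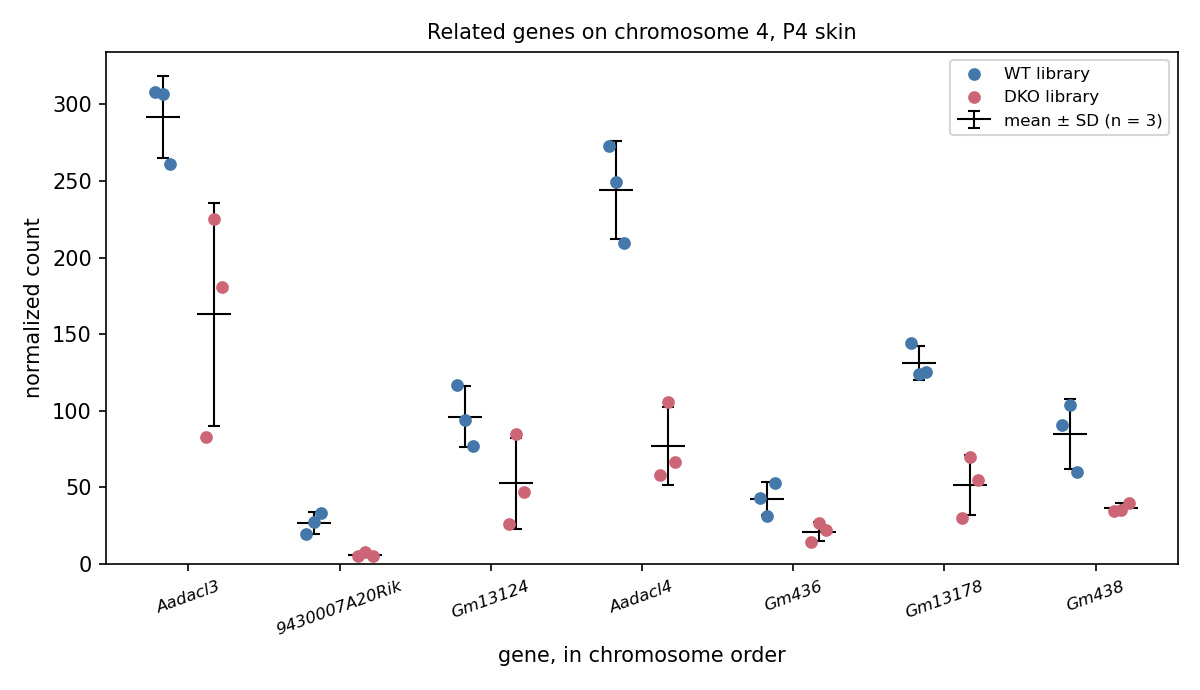
Normalized counts (vertical axis, linear) of the 7 related genes on chromosome 4 in chromosome order, with 1 point per library, WT in blue and DKO in red, and black bars for the mean ± SD of 3 libraries. The DKO mean is below the WT mean in all 7, and in *Gm13124* the groups overlap.

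The remaining paralog, *Nceh1*, encodes the neutral cholesterol ester hydrolase and lies elsewhere on chromosome 3 (chr3:27182965-27284608). It had normalized counts of 181, 184 and 219.9 in WT and 222, 176 and 176 in DKO, and the groups overlapped. Its log2 fold change of -0.03 (SE 0.176, adjusted p = 0.985, edgeR) contrasts with those of the chromosome 4 genes, a difference that was not tested. Its sign turned without the third WT library (0.06), the second DKO library (0.03) or the third DKO library (0.03). The 8 paralogs together had a median of -1.11. Under RLE size factors, total counts and DESeq2, the signs of the log2 fold changes of the 5 members, the 7 chromosome 4 genes and *Nceh1* did not change.

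Enzymes with related functions were read as lists, and no list was tested against the paralogs. The list of neutral lipid and acylglycerol hydrolases also holds *Nceh1*, which is counted among the paralogs as well. Among 20 carboxylesterases, 6 were tested, with 5 higher and 1 lower, 0 called by edgeR and 1 by DESeq2, and a median log2 fold change of 0.26, which was 0.01 without the first DKO library, 0.00 without the second WT library and 0.50 without the third WT library. At an unadjusted p under 0.05, 2 were higher and 1 lower, beside 4.96% and 2.54% of all genes tested, and the DESeq2 call was lower, beside 0.285%. The lower gene was *Ces4a*, with normalized counts of 731, 719 and 525 in WT and 143, 411 and 277 in DKO. *Ces2g* had means of 964 ± 87.8 and 1246 ± 36.2 (SD, n = 3), and *Ces1f* of 7.51 ± 6 and 38.3 ± 46.6, the latter resting on the first DKO library at 92. *Ces1h*, *Ces2a* and *Ces3b* had no count in any library.

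Among 28 neutral lipid and acylglycerol hydrolases found, 21 were tested, 9 higher and 12 lower, with a median log2 fold change of -0.03 (0.03 without the third WT or the third DKO library, -0.15 without the first DKO library), 0 called by edgeR and 1 by DESeq2, and *Lipo1* and *Lipi* had no count in any library. At an unadjusted p under 0.05, 1 was higher and 3 were lower, where 4.96% and 2.54% of all genes tested were, and the DESeq2 call was lower, beside 0.285% of genes. *Pnpla5*, of the patatin-like lipase family, had normalized counts of 263, 312 and 247 in WT and 86.8, 185 and 139 in DKO. *Pnpla2*, the main lipase that opens the breakdown of stored triglyceride, had means of 1363 ± 86.4 and 2149 ± 742, and *Lipm*, an acid lipase of the outer epidermis, 1842 ± 131 and 1417 ± 266 (SD, n = 3). Among 34 genes of microsomal drug and retinoid metabolism, 29 were tested, 11 higher and 18 lower, with a median of -0.09 (0.03 without the third DKO library), 0 called by either tool, and 1 higher and 2 lower at an unadjusted p under 0.05, beside the same shares, and *Nat1* had no count in any library. *Sdr16c6*, a short-chain dehydrogenase, had 1512, 1415 and 1105 in WT and 823, 694 and 870 in DKO. *Ugt1a1*, which conjugates bilirubin and drugs with glucuronic acid, had means of 232 ± 19.4 and 154 ± 32.8, and *Aox1*, an aldehyde oxidase, 163 ± 12.4 and 255 ± 84.8 (SD, n = 3).

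Markers of 11 cell types were read as lists, and edgeR called 0 genes in each. Of 17 sebaceous gland markers, 16 were tested, 14 lower and 2 higher in DKO, with a median log2 fold change of -0.71. By edgeR 0 were called, 9 had an unadjusted p under 0.05, all lower, and DESeq2 called 6 lower, beside 2.54% and 0.285% of all genes. The median lay between -0.97 and -0.64 with any library left out. The summed level of the list was 3084, 3314 and 3081 CPM in WT and 1464, 2262 and 1646 CPM in DKO, *Cyp4a12b* had no count in any WT library, and *Scd1*, a desaturase and its most abundant gene, had means of 22619 ± 1757 and 9151 ± 2259 normalized counts (SD, n = 3). In hair shaft and inner root sheath markers, all 15 tested were lower, with a median of -0.28, 0 called by either tool and 2 with an unadjusted p under 0.05, beside 2.54%. Without the first DKO library that median was 0.00, and without the second it was -0.80. Their summed level was 15077, 15199 and 13547 CPM in WT and 5337, 13739.8 and 10117 CPM in DKO, lowest in the first DKO library as for the chromosome 4 genes, and *Tchh* had means of 77253 ± 8948 and 48875 ± 22536. The part of these lists, and of those that follow, in the values of the esterase genes was not tested.

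Skeletal muscle markers were the opposite, with 15 of 16 higher, a median of 0.97 (0.51 without the first DKO library) and 0 called by edgeR. At an unadjusted p under 0.05, 12 were higher, beside 4.96% of all genes tested (1000 genes), and DESeq2 called 7 higher, beside 0.498% of genes (98 genes). Their summed level was 7043, 6096 and 6433 CPM in WT and 20999, 9741 and 9976 CPM in DKO, highest in the first DKO library, and *Ttn* had means of 62614 ± 4931 and 129570.1 ± 65816. Library sizes computed without this list gave a log2 fold change of -2.10 for *Gm5538*. Of the 21 granular and cornified keratinocyte markers 13 were higher and 8 lower (median 0.18, 0 called by edgeR). At an unadjusted p under 0.05, 7 were higher and 1 lower, beside 4.96% and 2.54% of all genes. DESeq2 called 1 higher, beside 0.498% of genes, and *Flg* had means of 26318 ± 1863 and 32341 ± 2749. For spinous keratinocytes 4 of 7 were higher (median 0.11, 0 called by edgeR), with *Krt1* at 26925 ± 2079 and 46590 ± 7387. Of these 7, 2 were higher and 1 lower at an unadjusted p under 0.05, beside 4.96% and 2.54% of all genes. DESeq2 called 1 lower, beside 0.285% of genes. The spinous sum was 5235, 5172 and 5635 CPM in WT and 7270.4, 8016 and 6626 CPM in DKO, without overlap. For basal keratinocytes 7 of 8 were higher (median 0.12, 0 called by either tool), with *Krt5* at 19271 ± 827 and 20771 ± 6059. Of these 8, 1 was lower at an unadjusted p under 0.05, beside 2.54% of all genes. Without the second DKO library the medians of these keratinocyte lists turned to -0.06 for granular and cornified, -0.13 for spinous and -0.03 for basal markers. Without the first DKO library they were 0.20, 0.27 and 0.21.

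Counts at an unadjusted p under 0.05 in the lists that follow stand beside 4.96% higher and 2.54% lower among all genes tested, and DESeq2 calls beside 0.498% higher and 0.285% lower. Among 12 adipocyte markers 8 were higher (median 0.19; 0 called by edgeR, 2 higher and 1 lower at an unadjusted p under 0.05, 2 called higher by DESeq2), and *Car3* had means of 9437 ± 2619 and 12549 ± 7804. Their sum was 1756, 1803 and 2565 CPM in WT and 3414, 1838 and 1643 CPM in DKO, highest in the first DKO library, without which the median was -0.27. Without the third WT library it was 0.42. All 9 dermal fibroblast markers were higher (median 0.18, or 0.34 without the third WT library; 0 called by either tool, 1 at an unadjusted p under 0.05), with *Col1a1* at 115758 ± 13833 and 152532 ± 51797 and a sum of 15357, 17262 and 18647 CPM in WT and 20678, 25528 and 17487 CPM in DKO. Of the 9 macrophage and Langerhans cell markers 5 were higher (median 0.03; 0 called by either tool, 1 at an unadjusted p under 0.05), with *Mrc1* at 971 ± 198 and 1387 ± 531, and that median was -0.01 without the first or the third WT library, -0.21 without the second DKO library, 0.13 without the third DKO library and -0.04 with total counts. Since *Aadac* is known from liver and intestine, markers of both were read. Of 12 hepatocyte markers 3 were tested (median -0.23, or 0.26 without the third DKO library; 0 called by either tool and 0 at an unadjusted p under 0.05), the summed level lay between 18.2 and 30.2 CPM over the 6 libraries, and most of it came from *Cps1*, at 303 ± 53.5 and 258 ± 50.4 normalized counts, while *Alb* was at 16.4 ± 5.45 and 44 ± 43.2. Over all 12, tested or not, 10 had a higher mean in DKO and 2, *Cps1* and *Apob*, a lower one, and *Fgb* and *Tat* had no count in any WT library. Of 8 enterocyte markers 3 were tested (median -0.16, or between -0.47, without the second WT or the first DKO library, and 0.05, without the third DKO library; 0 called by either tool and 0 at an unadjusted p under 0.05), *Alpi*, *Cdx2* and *Sis* had no count in any library, and *Anpep*, which other tissues also express, had means of 2287 ± 278 and 2265 ± 649.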

How the data were processed

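The authors depleted rRNA from total RNA, sequenced 150 bp paired-end reads and used Trimmomatic 0.36 for trimming and STAR 2.5.2b for alignment to GRCm38. They assigned reads to annotated genes with featureCounts (Subread 1.5.2) and tested for differential expression with DESeq2, which is an alternative here. The deposited values are raw counts per gene for 49315 genes, without normalization. The 7 epidermis libraries hold only 0 in the files used and were left out. Counts of 3 WT and 3 DKO libraries were fitted in R 4.3.3 with edgeR 4.0.16 (filterByExpr, TMM, quasi-likelihood test, Benjamini-Hochberg adjustment over 20168 genes). DESeq2 1.42.0, RLE size factors, total counts, other filters on low counts, library sizes without skeletal muscle genes, a replicate block and each library left out were tried. Symbols and exons came from GENCODE vM21, and promoters from RefSeq. The cluster members and all gene lists (11 of cell markers, 3 of enzymes, and the paralogs by name) were chosen with earlier results of these data known. Named genes were the members, the targeted genes, genes inside the span, the 4 nearest on each side and the paralogs with a mean normalized count of at least 10, the 3 smallest p-values in each enzyme list, the most abundant gene of each marker list, and the 3 genes most correlated with *Gm5538* and *Aadac*. Others were named after their values were seen.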

Additional observations from a re-analysis of the deposited data

How the results depend on the processing

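Of 20168 genes, 14 were called (6 lower, 8 higher). DESeq2 called 154 (56 lower, 98 higher), total counts 22 (12 lower), no filter on low counts 210 (77 lower, 133 higher), library sizes without skeletal muscle genes 21 (12 lower), and the replicate block, the number shared by labels of both genotypes, 35 (20 lower, 15 higher). With 1 library left out, between 2 and 36 genes were called, 0 to 24 lower and 2 to 20 higher, and the cause was not tested. Of the chromosome 4 paralogs, 0 were called at the settings reported, 4 by DESeq2 and with no filter, 1 (*Aadacl4*) with total counts, without skeletal muscle genes and with the block, and 0 to 1 with a library left out. *Gm37579* was the 1 gene beside the cluster called with no filter. The log2 fold change of *Nceh1* ranged from -0.16 to 0.06 with a library left out, turning to 0.06 without WT replicate 3 and to 0.03 without DKO replicate 2 or DKO replicate 3. RLE size factors (16 genes called) and a minimum of 10 counts in every library (12) kept 2 members called. A planned level per kilobase from protein length was not run, since no protein table was available, and the longest annotated transcript used in its place was chosen after seeing the data. *Gm38208*, *Gm5539*, *Gm2756* and *Gm18427* did not pass the filter on low counts and were not tested.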
